A study of Rattus norvegicus with 6 samples.

Results

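B lineage cells are the antibody-producing branch of the lymphocytes, from marrow precursors to plasma cells. Among single cells of the spinal cord, 113 of 26847 cells were taken as B lineage cells: 11 of 2757 cells of intact cord, 87 of 7360 cells at 1 day after a crush injury, 8 of 9263 cells at 3 days and 7 of 7467 cells at 7 days. A cell was counted when its UMIs (counted RNA molecules) of Cd79a and Cd79b, the signalling chains of the B cell receptor, came to at least 4, when it held no UMI of the T cell receptor chain gene Cd3e, and when C1qa and C1qb, complement genes of microglia and macrophages, held at most 10 of every 10000 UMIs of the cell. These counts chose the cells, so levels of those genes are given as a description. That the day 1 library holds most of the cells was known when the rule was written.

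The labels give SD rats of 6 to 8 weeks, a 5-mm section of cord, and a crush at thoracic level 10. The intact library is taken as uninjured from its title, although its treatment label is the crush as well. The gene names of the 4 tables have the mouse form, so whether the cells come from the labelled species was not tested. Each time point is 1 library, with 5 animals per condition per the labels, so no difference between time points has a replicate check, no test was made, and every interval in brackets is a 95% interval that covers counting error only. Fewer cells of a type, fewer cells freed by the digestion and less RNA per cell cannot be told apart in such shares.

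B cells arise in the bone marrow. A pro-B cell joins the segments of its heavy chain gene with the recombinases Rag1 and Rag2, while the terminal transferase Dntt adds bases at the joints. The new µ heavy chain, Ighm, is first held at the surface with a surrogate light chain made of Vpreb1, Vpreb2 and Igll1 (lambda 5), until the cell has joined a kappa (Igkc) or lambda (Iglc1 to Iglc3) light chain of its own and becomes an immature B cell. Mature B cells carry Ms4a1 (CD20), the target of the antibody rituximab, and present antigen on MHC class II, and plasma cells secrete antibody with the help of Jchain and Mzb1. In the cord, B cells are rare in health and are known from the meninges and from injured tissue. Ebf1, Tcf3 (E2A) and Pou2af1 with its octamer-binding partners are the regulators best known for switching on B lineage genes.

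The promoters of a receptor chain and of its adaptor are shown because the cells were chosen on the first and because the letters that these regulators bind can be seen in them. Both runs are the 250 bases before the annotated start in RefSeq's rat assembly GRCr8, from 5′ to 3′. The first, chr1:89621210-89621459 on the plus strand, precedes Cd79a, and its capitals mark an E-box, the letters CAGGTG, beginning 155 bases before the start. The second, chr1:249770534-249770783 on the minus strand, precedes Blnk, the adaptor that couples the receptor to calcium signalling, and its capitals mark an octamer, the letters ATTTGCAT, beginning 189 bases before the start.
Cd79a: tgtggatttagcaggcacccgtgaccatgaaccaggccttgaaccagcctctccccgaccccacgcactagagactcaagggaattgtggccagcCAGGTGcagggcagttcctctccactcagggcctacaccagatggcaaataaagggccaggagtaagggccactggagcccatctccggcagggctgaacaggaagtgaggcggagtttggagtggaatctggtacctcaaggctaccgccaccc
Blnk: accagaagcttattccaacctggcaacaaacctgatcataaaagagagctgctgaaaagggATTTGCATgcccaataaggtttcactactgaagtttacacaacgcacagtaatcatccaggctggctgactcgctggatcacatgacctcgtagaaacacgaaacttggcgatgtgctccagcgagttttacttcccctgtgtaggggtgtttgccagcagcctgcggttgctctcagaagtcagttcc

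Of the 41 genes of the lists on the B cell receptor, on recombination and on early regulators, 28 matched a promoter in that table. CAGGTG, searched on both strands, occurred in 8 of the 28 (Cd79a, Cr2, Fcrla, Il7r, Pik3ap1, Plcg2, Ptpn6 and Rag1) and in 15.9% of all 33469 promoters. ATTTGCAT occurred in Blnk and Vpreb3, and in 1.56% of all promoters. The EBF letters, TCCC and GGGA with any pair of bases between, occurred in none of the 28 and in 0.738% of all promoters. Each of the 2 printed promoters holds a single match, so none overlaps another, and a match is a stretch of letters, not a measured site. The promoters are those of the rat, while the gene names of the cells have the mouse form, so they may not be those of the cells. In the cells themselves, Cd79a stood at 1446 counts per 1000000 UMIs (CPM) of the summed B lineage cells in the intact cord, 1553 at day 1, 856 at day 3 and 1217 at day 7. Blnk stood at 394, 201, 158 and 111 CPM, with UMIs in 6 of 11, 39 of 87, 5 of 8 and 2 of 7 cells.

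B lineage cells made up 0.399% (0.199 to 0.713) of the intact library and 1.18% (0.948 to 1.46) of the day 1 library. Their share was 0.0864% (0.0373 to 0.170) at day 3 and 0.0937% (0.0377 to 0.193) at day 7. Day 1 thus stood highest, intact cord next, and the 2 later libraries lowest, with intervals of days 3 and 7 that overlap each other. The cells were small in RNA: their median was 1961 UMIs in intact cord, 2132 at day 1, 1551 at day 3 and 1457 at day 7, against 3090, 5339.5, 6648 and 3617 over all cells of those libraries. No barcode of a B lineage cell was shared between libraries, while 323 barcodes were shared over all cells and pairs of libraries.

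The threshold cut the day 1 and day 3 libraries near cells of few Cd79 UMIs. Cells with 3 such UMIs numbered 0 in intact cord, 13 at day 1, 12 at day 3 and 1 at day 7, and cells with exactly 4 that met the other criteria numbered 1, 10, 3 and 2. The C1q criterion removed 1, 8, 6 and 2 cells in that order, and the Cd3e criterion removed none. At day 3 all 8 cells held 4 to 6 Cd79 UMIs. Asking for 6 such UMIs left 0.910% of the day 1 cells and 0.0108% of the day 3 cells, so the day 3 cells rest most on this bound. A C1q bound of 5 per 10000 in place of 10 left 0.109% of the intact cells, 1.01% of the day 1 cells, 0.0756% of the day 3 cells and 0% of the day 7 cells, so all 7 day 7 cells rest on that bound.

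The name of the cells was checked against markers that did not choose them, beside endothelial cells of the same library as a measure of free RNA. At day 1 Ighm was seen in 83 of 87 cells (95.4%) against 2.19% of 1234 endothelial cells, although the endothelial cells were deeper, with a median of 4432 UMIs. Igkc was seen in 89.7% against 4.94%. Vpreb3, which is known for pairing with free µ chains in immature cells, was seen in 66.7% against 0.486%, and Ms4a1 in 47.1% against 0.0810%. Cd74 was seen in 81.6% against 10.05%. All of these are far above the endothelial shares of day 1. In the other libraries Ighm was seen in 9 of 11 intact, 6 of 8 day 3 and 7 of 7 day 7 cells. Igkc was seen in 9 of 11, 8 of 8 and 2 of 7. One intact cell, of 5885 UMIs, did not carry these markers. It held no UMI of Ighm, Igkc, Vpreb3, Ms4a1 or Cd74, but 48 of the endothelial genes Cldn5, Pecam1, Flt1 and Cdh5. It met the rule and stays in the intact sums, of 30439 UMIs. Ebf1 tells less by itself, because 88.5% of B lineage cells but also 45.4% of endothelial cells held a UMI of it. Of the 8 T cell markers, Cd3d and Cd4 were at 0 in all 4 libraries, and the list's sum had a median of 0 UMIs a cell and a highest value of 3 in intact cord, 3 at day 1, 4 at day 3 and 1 at day 7. Il7r, which B cell precursors carry too, gave 29 of the 37 day 1 UMIs. The 4 day 3 UMIs, of Cd3g, Cd8a and Cd28, were all in 1 cell.

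**Figure D1:**
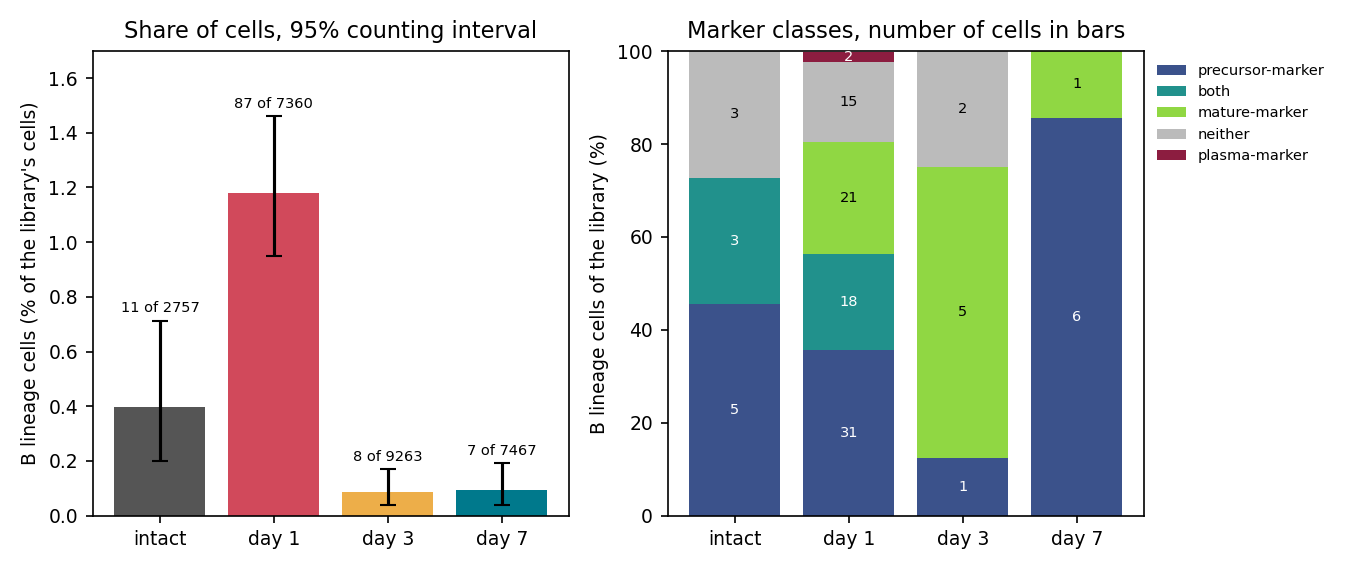
Share of B lineage cells among all cells of each library, in percent with 95% Clopper-Pearson bars for counting error, and the number of B lineage cells in each marker class per library. The day 1 library has the highest share, 1.18%, and is the only one with all 5 classes.

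Each cell was then put in a class by its stage markers. Precursor-marker cells held at least 2 UMIs of the surrogate light chain genes Vpreb1, Vpreb2 and Igll1 and of Vpreb3 together and no Ms4a1. Mature-marker cells held Ms4a1 and fewer than 2 of those UMIs. Cells with both, with neither, or with the plasma genes Jchain and Mzb1 (1 UMI each and together at least 10 of 10000) formed the other classes. Such classes are ranges of counts, not types: at day 1, 4 precursor-marker cells and 7 cells with both sat at exactly 2 UMIs, and 11 of the mature-marker cells held a single Ms4a1 UMI.

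Precursor-marker cells were found in every library. They were 5 of 11 cells in intact cord (45.5%, 16.7 to 76.6), 31 of 87 at day 1 (35.6%, 25.6 to 46.6), 1 of 8 at day 3 (12.5%, 0.316 to 52.7) and 6 of 7 at day 7 (85.7%, 42.1 to 99.6). Mature-marker cells were 0 of 11, 21 of 87 (24.1%, 15.6 to 34.5), 5 of 8 (62.5%, 24.5 to 91.5) and 1 of 7 (14.3%, 0.361 to 57.9). The day 3 cells thus leaned to the mature markers and the day 7 cells to the precursor markers, from 8 and 7 cells. Cells with both numbered 3, 18, 0 and 0. Both plasma-marker cells came from day 1, and 3 intact, 15 day 1 and 2 day 3 cells had neither marker set.

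The surrogate light chain split the precursors further. Vpreb1 and Igll1 together were either at 5 or more UMIs in a cell or at 0 or 1, and no cell of the 113 held 2 to 4, so 5 was taken as a bound after these values were seen. At or above it stood 15 of the 113 cells (13.3%). The intact library had 1 such cell, with 16 UMIs. Day 1 had 8, with 10, 11, 22, 17, 32, 44, 24 and 20 UMIs, and day 3 had none. Day 7 had 6 of its 7 cells, with 14, 26, 19, 5, 11 and 9 UMIs. The single day 7 cell without surrogate light chain was the mature-marker cell. Vpreb1 and Vpreb2 are near-identical copies, so reads may be split between them.

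**Figure D2:**
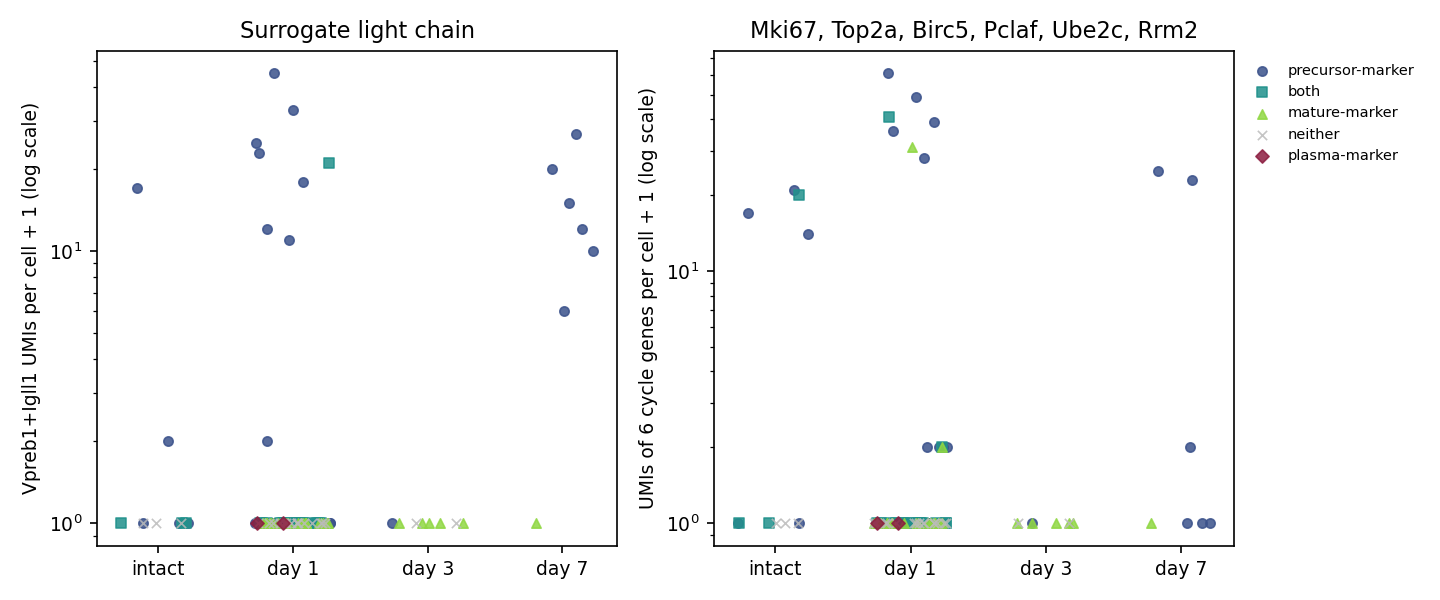
UMIs per B lineage cell, on log axes of UMIs plus 1, for Vpreb1 plus Igll1 and for 6 cell cycle genes, by library, each point a cell. Values fall into a low and a high group with none between, and 6 of the 7 day 7 cells lie in the high group for the surrogate light chain.

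Cells with the surrogate light chain mostly lacked a light chain of their own. Of the 15, Igkc had a UMI in 4 (highest 37) and at least 2 UMIs in 2, and Iglc1 to Iglc3 had a UMI in 1, at 18 UMIs. All 15 held Ighm, with a median of 4 UMIs. In the other 49 cells of the precursor-marker class and of the class with both, Igkc was present in 48, with a median of 16 and a highest of 92 UMIs, and Ighm in all, with a median of 9. The 15 were the deeper cells, at a median of 3388 UMIs against 1810, so the cells with less Igkc had the more UMIs. Within day 1 alone, all 41 surrogate-low cells held Igkc, at 1 to 92 UMIs with a median of 17 and from a median of 1761 UMIs a cell, and the 8 surrogate-high cells had a median of 4101 UMIs.

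**Figure D3:**
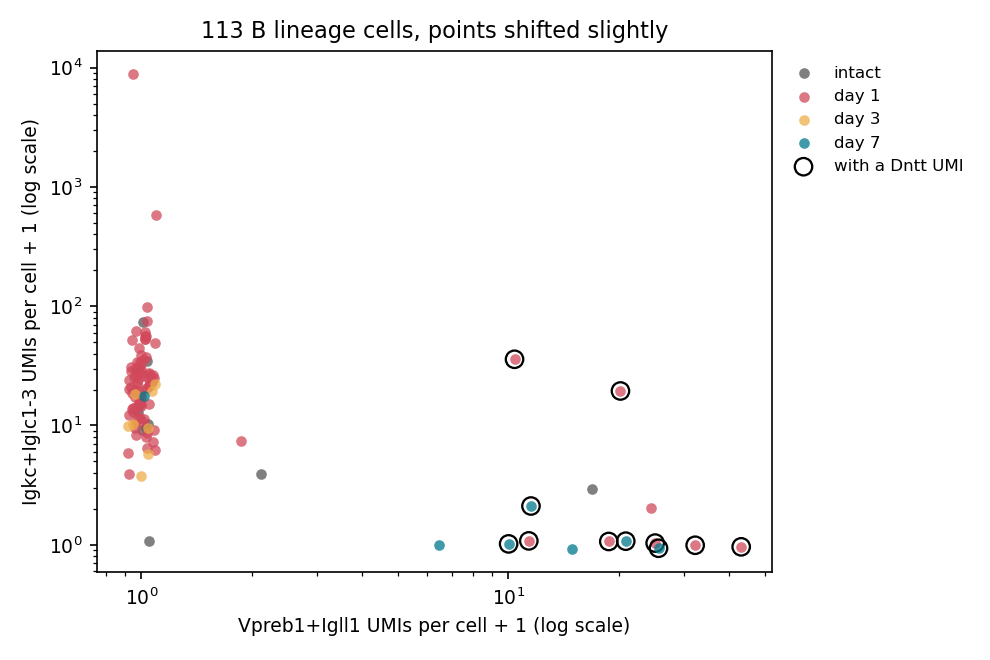
Light chain UMIs (Igkc plus Iglc1 to Iglc3) of each B lineage cell against its Vpreb1 plus Igll1 UMIs, both on log axes of UMIs plus 1, with rings around cells that held a Dntt UMI. The ringed cells all lie to the right, among the 15 cells with 5 or more surrogate UMIs, and most of them at 0 light chain.

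Terminal transferase, which the rule did not use, was seen in the same cells. Dntt had UMIs in 11 of the 15 cells (37 UMIs), 7 of 8 at day 1 with up to 7 UMIs and 4 of 6 at day 7 with up to 8, and in none of the other 98, which allows a share of up to 3.06%. It was seen in 1 of 5156 endothelial cells and in 20 of the 26734 cells outside the gate. Rag1 and Rag2 were sparser and less tied to the surrogate light chain: they had UMIs in 5 of the 15 cells (8 UMIs), in 10 of the 98 (13 UMIs) and in 0 of 5156 endothelial cells, which allows a share of up to 0.0582%. A further 4 day 7 cells outside the gate held 5 or more UMIs of Vpreb1 and Igll1, with up to 9 Cd79 UMIs, so the gate did not take all such cells of day 7.

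Mzb1 and Cd74 also differed between the surrogate-high and surrogate-low cells, and Sox4 only in its share of cells. Of the 15 surrogate-high cells, 6 were of day 7, while none of the 49 others were, so library and stage are mixed here. Mzb1, a chaperone of the endoplasmic reticulum that helps to assemble antibody, was in 14 of 15 against 30 of 49 cells, at 12.2 against 4.43 of every 10000 UMIs. Sox4, a transcription factor needed in early B cell development, was in 14 of 15 against 26 of 49, but at similar levels of 8.54 and 7.41 of 10000. Cd74, the invariant chain of MHC class II, was in 3 of 15 (highest 6 UMIs) against 36 of 49 (median 5 UMIs). The deeper cells of the first group raise shares of cells with a UMI, so the Mzb1 and Sox4 shares are read with the levels beside them.

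Transcripts of antigen presentation genes were low in the precursor-marker cells of day 1 and higher in the mature-marker and neither-marker cells. Median Cd74 was 0 UMIs in the 31 precursor-marker cells (0 to 28), 16.5 in the 18 cells with both (2 to 69), 31 in the 21 mature-marker cells (5 to 292) and 32 in the 15 cells with neither (11 to 91). At least 10 UMIs were held by 5 of 31, 13 of 18, 20 of 21 and 15 of 15 cells, and 16 of the 31 precursor-marker cells held none. The class II chains H2-Aa, H2-Ab1 and H2-Eb1 together had medians of 1, 1.50, 17 and 17 UMIs. In the other libraries the 6 day 7 precursor-marker cells held no Cd74 and the day 7 mature-marker cell held 33 UMIs. Of the 5 intact precursor-marker cells, 3 held none and the others held 2 and 4. The 8 day 3 cells held 37, 47, 27, 43, 20, 35, 102 and 52, so all of them lie at or above 20.

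**Figure D4:**
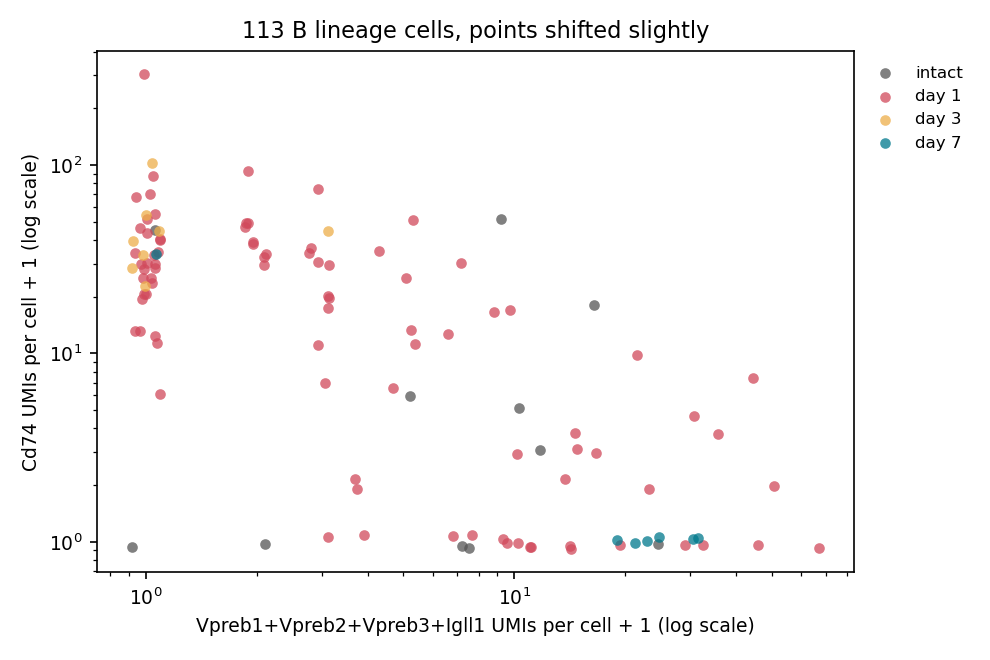
Cd74 UMIs of each B lineage cell against its UMIs of the surrogate light chain genes and Vpreb3, both on log axes of UMIs plus 1, by library. Cells with many precursor UMIs lie low in Cd74, and all 8 day 3 cells lie at 20 Cd74 UMIs or more.

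Summed over cells, 63 of 512 genes with at least 50 UMIs over both sums stood at least 2-fold higher in day 1 precursor-marker than in mature-marker cells (12.3%), and 34 stood at least 2-fold lower (6.64%). The classes were cut on counts of the same cells, so these folds describe the classes. All 4 class II genes with enough UMIs, of the 10 in the list, were lower, with Cd74 10.2-fold (8.44 to 12.5), H2-Aa 9.47-fold, H2-Ab1 9.84-fold and H2-Eb1 10.3-fold lower. Ebf1 was 3.16-fold higher (2.38 to 4.25), Fcrla, an Fc receptor-like protein inside B cells, 4.13-fold (1.91 to 10.2), and Dnajc7, a co-chaperone, 7.11-fold (4.47 to 11.9). Sox4 had 98 UMIs against 0 and was at least 25.7-fold higher, against a floor of 3 counts over the group. Ighm was 1.90-fold higher (1.54 to 2.35) and Igkc 1.18-fold.

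Transcripts of other cell types sit in both classes and touch these folds. At least 10 UMIs of 4 endothelial genes, of S100a8 plus S100a9, or of Lyz2 were held by 20 of the 113 cells (17.7%): 2 intact, 16 day 1 and 2 day 3 cells. At day 1 these were 4 precursor-marker, 2 both-marker, 6 mature-marker and 4 neither-marker cells. Doublets were not called, and whether these are doublets, free RNA or real expression was not tested. One day 1 precursor-marker cell held 2509 UMIs of S100a8 and S100a9, alarmins of neutrophils, and 936 of the granule genes Ngp and Camp. It alone held 99.6% of the class's Ngp, 99.3% of its Camp and 97.6% of its S100a8, whose folds over the mature-marker class were 405, 335 and 8.32. On the other side Ly6c1, 41.3-fold lower, Cldn5, 30.5-fold lower, and Ctla2a, 18.8-fold lower, are endothelial genes found in 6, 4 and 7 of the 21 mature-marker cells. The highest cell held 73.8, 41.7 and 45.8% of their UMIs in that class.

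Without those cells, 27 precursor-marker and 15 mature-marker cells were left. All 4 eligible class II genes were still lower, with Cd74 12.9-fold (10.5 to 15.98) and H2-Aa 14.8-fold lower. All 4 eligible microglia and macrophage markers were lower as well, with a median log2 ratio of -2.76 against 0.04 over all genes, where 1 of 4 was lower with all cells, and their part in the class II difference was not tested. Fcer1g, a signalling chain of Fc receptors, was 9.67-fold, Apoe 7.59-fold and Tyrobp, an adaptor of myeloid receptors, 6.02-fold lower. Sox4 had 92 UMIs against 0 and was at least 17.8-fold higher, and Ebf1 was 2.71-fold higher (1.98 to 3.76). Hmgb2, a chromatin protein of dividing cells, went from 3.99-fold (2.93 to 5.54) to 46.9-fold (15.9 to 229) higher. The cells left out include the single dividing mature-marker cell, of 16664 UMIs and with 47 UMIs of Lyz2. Iglc2 was 4.43-fold and Junb 3.49-fold lower in the precursor-marker cells, and Igkc did not differ beyond counting error, at 1.15-fold (0.975 to 1.35). S100a8 did not keep its direction, with a log2 ratio of -0.15.

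**Figure D5:**
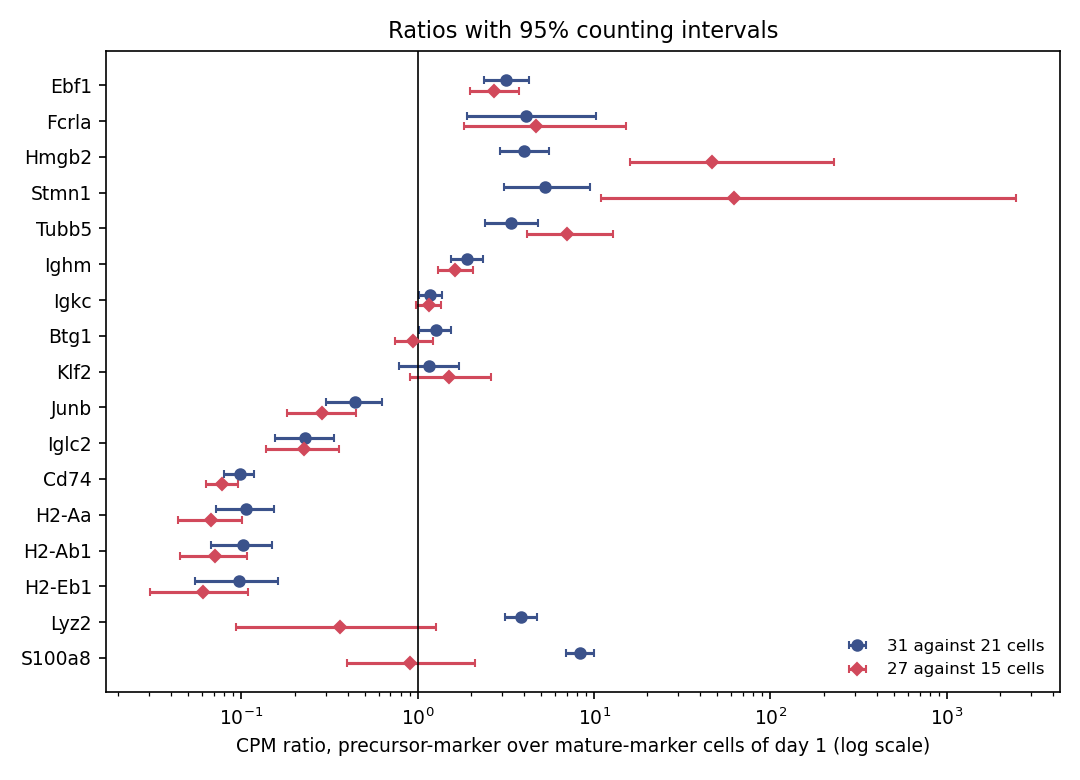
Ratio of CPM, precursor-marker over mature-marker cells of day 1, on a log axis with 95% intervals for counting error, for 17 genes with all cells (31 against 21, circles) and without cells holding 10 UMIs of another cell type (27 against 15, diamonds). Cd74 and the class II genes lie far left of 1 in both, while S100a8 lies right of 1 only with all cells.

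Genes of circulating, mature B cells were sparse. Of the 16 in the list, Cd37, a tetraspanin, alone had enough UMIs between the precursor-marker and mature-marker cells and was 1.41-fold higher in the former (0.849 to 2.41), so none passed 2-fold. Shares of cells with a UMI are given for 3 of the others, chosen after their values were seen. Fcer2a (CD23), the low-affinity IgE receptor of follicular cells, was seen in 0 of 31 precursor-marker, 3 of 18 both-marker, 5 of 21 mature-marker and 4 of 15 neither-marker cells. Fcmr, the IgM receptor, was seen in 3, 6, 11 and 6 cells, and Bank1, a signalling scaffold, in 3, 7, 9 and 7. Homing receptors were spread over the classes: Ccr7, which guides cells to lymphoid tissue, was in 6, 7, 10 and 7 cells, and Cxcr4, which holds precursors in the marrow, in 11, 7, 6 and 4. Among early regulators, Sox4 was at 932, 820.1, 0 and 0 CPM, Myb at 257, 168, 12.1 and 0 CPM, and Bach2 at 199.6, 105, 0 and 24.1 CPM. Il7r, the receptor of the precursors' growth factor, was at 162, 84.1, 36.3 and 120.3 CPM, from 17, 4, 3 and 5 UMIs. Pax5, kept through most B cell stages, had only 12, 6, 5 and 3 UMIs. Ebf1, at 2329, 2292, 738 and 722 CPM, and Ly6d, at 723, 3007, 1004 and 674 CPM, were present throughout, with Ly6d highest in cells with both. The classes without surrogate markers had about the depth of the others, with median UMIs of 2010, 1749, 2569 and 1748.

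Light and heavy chains were mostly those of unswitched kappa cells. Ighm had a UMI in 105 of the 113 cells. Igkc exceeded Iglc1 to Iglc3 in 84 of the cells with at least 5 light chain UMIs (7 intact, 70 day 1, 6 day 3 and 1 day 7), and lambda exceeded kappa in 10 (1, 8, 1 and 0). A further 17 cells (3, 7, 1 and 6) had fewer than 5 light chain UMIs, and the remaining 2 cells, both of day 1, held kappa and lambda in equal numbers, 7 and 7 UMIs and 8 and 8 UMIs. Switched isotypes were rare: Igha was seen in 3 day 1 cells and Ighg3 in 1, while Ighg1, Ighg2b, Ighg2c and Ighe had no UMI in any library. Bcl6 had 1 UMI and Il10 had 2 in a single cell, all at day 1. Reads may be split between the near-identical Iglc copies.

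Both plasma-marker cells were unlike each other. In the first, of 16060 UMIs, Igkc held 8831 UMIs (54.99% of the cell), Ighm 1750, Jchain, which joins IgM and IgA into polymers, 979, and Xbp1, the secretory regulator, 16. Iglc1 to Iglc3 held 92. Mzb1 was at 10, Sdc1 (CD138) at 2, and the class II chains at 1. In the second, of 5127 UMIs, Igkc held 485 UMIs (9.46%), Iglc1 to Iglc3 63, Ighg3 63, Igha 1, Ighm 0, Mzb1 16 and Jchain 1, with 47 class II UMIs and 2 of Ms4a1. The first thus held the µ chain and the joining chain at high counts, and the second entered the class on a single Jchain UMI while it kept class II and Ms4a1. Outside the gate no cell held more than 2 Jchain or 34 Igkc UMIs.

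One cell thus sets the antibody level of the day 1 library. The first plasma-marker cell held 81.6% of the day 1 Igkc UMIs, 71.6% of Ighm and 99.9% of Jchain. With both plasma-marker cells left out, the log2 ratio of day 1 over intact cord went from 2.88 to 0.14 for Igkc and from 1.54 to -0.18 for Ighm. Over day 3 it went from 3.77 to 1.03 for Igkc and from 3.84 to 2.13 for Ighm, and over day 7 from 5.66 to 2.91 and from 2.89 to 1.18. Day 1 therefore stood above days 3 and 7 with or without the plasma-marker cells, while its gap to intact cord was close to 0 without them. The day 3 sums here kept 2 cells with at least 10 UMIs of Lyz2, the larger of which held 15502 of the 31555 UMIs. Without such cells, Igkc at day 3 changed direction against intact cord. Day 1 without plasma-marker cells was not set against day 3 without those cells.

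Dividing cells were told from 6 cell cycle genes, Mki67, Top2a, Birc5, Pclaf, Ube2c and Rrm2, which together were at 10 UMIs or more, or at 0 or 1, in every cell. Above were 4 of 11 intact cells (13, 19, 20 and 16 UMIs), 7 of 87 day 1 cells (27 to 60, median 38), 0 of 8 day 3 cells and 2 of 7 day 7 cells (24 and 22). By class over all libraries they were 10 of 43 precursor-marker cells, 2 of 21 with both, 1 of 27 mature-marker cells and 0 of 20 with neither. The 13 dividing cells were deeper, with a median of 4902 UMIs against 1818 in the others. No cell lay between the groups, so the count does not turn on where the bound is put.

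Levels of genes were then set between libraries, over summed cells and among genes with at least 50 UMIs over both sums together. These folds rest on 11, 87, 8 and 7 cells and on 30439, 298184, 31555 and 18082 UMIs. The comparisons with intact cord share that library, and those with day 1 share that one. Other scalings of the totals moved all genes of a comparison together: by TMM the log2 ratio of day 1 over intact shifted by 0.74, day 3 over intact by 0.26, day 7 over intact by -0.24, day 1 over day 3 by 0.46 and day 1 over day 7 by 0.84. Directions below are those of plain CPM unless the scaled count is given.

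Day 1 against intact cord put 165 of 887 genes at least 2-fold higher (18.6%) and 90 at least 2-fold lower (10.1%), and TMM scaling gave 379 and 23. Class II genes were higher in 4 of the 6 with enough UMIs: H2-Eb1 was 3.36-fold (1.68 to 7.85), H2-Aa 3.16-fold (1.89 to 5.69), H2-DMa 2.91-fold (0.769 to 24.6) and H2-Ab1 2.23-fold higher (1.43 to 3.69), with Cd74 at 1.80-fold (1.50 to 2.18). After TMM scaling all 6 passed 2-fold. Cell cycle genes were at least 2-fold lower in 6 of 7, with Hmgb2 3.63-fold lower (2.96 to 4.43), against 2 of 7 after TMM scaling. A single cell held 32.4% of the intact Hmgb2 UMIs. Vpreb3 was at 0.669 of its intact level and reversed after scaling, and Ebf1 at 0.542. None of the 7 B cell receptor genes with enough UMIs passed 2-fold either way, and after TMM scaling 1 of 7 was higher. They include Cd79a, a gene of the rule, whose level the gate set in part in both libraries, so the count does not show unchanged receptor genes.

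Immediate early and quiescence genes stood higher at day 1 in 8 of 14 (11 of 14 after TMM scaling), and antibody constant region genes in 5 of 6. The antibody count includes the plasma-marker cells, which held most of the day 1 Igkc and Ighm UMIs, and it was not made again without them. Klf2, which keeps lymphocytes resting and sets their homing receptors, had 252 UMIs against 1 and was 25.7-fold higher (4.58 to 1020). Jund was 11.8-fold (3.995 to 57.4), Btg1, an antiproliferative gene, 6.73-fold (3.63 to 14.1) and Junb 2.77-fold higher. Of the glycolysis genes 4 of 7 were higher (7 of 7 after TMM scaling), Pkm 5.77-fold, Aldoa 5.23-fold and Gapdh 4.44-fold. Klf2 is abundant in endothelium. Without the cells holding 10 UMIs of another type, Klf2 was 18.95-fold (3.35 to 753), Jund 14.1-fold and Btg1 6.32-fold higher, while Gapdh was 2.27-fold, Aldoa 3.26-fold and Pkm 4.23-fold higher.

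Markers of phagocytes moved with the same comparison. All 4 microglia and macrophage markers with enough UMIs and 4 of 5 monocyte markers were at least 2-fold higher at day 1 than in intact cord. The 9 macrophage markers summed to 0 to 234 UMIs a cell at day 1 (median 3) and 0 to 5 in intact cord (median 2), and the 6 monocyte markers to 0 to 352 (median 2) and 0 to 8 (median 3), with P2ry12 at 0 at day 1 and Adgre1, Ccr2 and Ms4a6c at 0 in intact cord. The 8 neutrophil markers summed to 0 to 3631 UMIs a cell at day 1 and 0 to 192 in intact cord, with a median of 2 in both and Cxcr2 at 0 in both, and the 6 endothelial markers to 0 to 80 (median 0) and 0 to 103 (median 2). Beside Jchain, the genes with the highest ratios at day 1 included Spp1, Lgals3, Ccl6, S100a6, Cebpb and Arg1, and Spp1 was seen in 75.9% of day 1 B lineage cells but also in 84.8% of endothelial cells, which were deeper. The highest cell held 38.5% of the day 1 Spp1 UMIs, 32.9% of Ccl6 and 25.6% of Arg1. With each cell thinned to 1000 UMIs, the Spp1 shares were 49.4% (38.5 to 60.4) and 41.1% (38.3 to 43.9), with intervals that overlap. Their part in the day 1 levels was not tested. Without the cells of another type, 3 of 5 class II genes, 6 of 9 immediate early genes and 3 of 4 glycolysis genes were higher, and 6 of 7 cell cycle genes lower. Their median log2 ratios were 1.21, 1.27, 1.44 and -1.48, against 0.01 over all genes with enough UMIs. The macrophage markers were higher in 4 of 4 without those cells too, with a median log2 ratio of 2.77 against 0.01 over all genes, while 0 of 1 monocyte marker passed 2-fold.

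Day 3 against intact cord put 38 of 186 genes higher (20.4%) and 31 lower (16.7%), and 50 and 24 after TMM scaling. All 4 eligible class II genes were higher, with H2-Eb1 9.04-fold (4.36 to 21.7), H2-Aa 6.88-fold, H2-Ab1 6.27-fold and Cd74 2.92-fold (2.37 to 3.62). Few members of the other lists had enough UMIs. Of the 7 genes on the surrogate light chain and recombination this was Vpreb3 alone, 34.7-fold lower (9.25 to 293). Of 18 early regulators it was Ebf1, which was lower. In the cell cycle list 2 of 22 genes were lower, Hmgb2 17.6-fold (8.69 to 41.6) and Tubb5 8.68-fold. Among the genes with the lowest ratios were also Dnajc7, 26.95-fold lower (7.10 to 228), and Cd24a, which early B cells carry at a high level, 7.52-fold lower. Of the intact UMIs, the highest cell held 36.5% for Dnajc7, 32.8% for Cd24a, 32.4% for Hmgb2 and 25.4% for Tubb5. One day 3 cell of 15502 UMIs held 573 UMIs of Spp1, 190 of Lyz2 and 122 of Apoe, and another held 134 of Lyz2. The 9 macrophage markers summed to 5 to 858 UMIs a cell (median 9.50) with all 8 cells and to 5 to 12 without these cells, with Cx3cr1 and P2ry12 at 0. The first of the cells gave 96.8% of the day 3 Spp1, 87.8% of Ctsd and 93.7% of Ctsb. With both left out, 6 cells remained, in which Cd74 was 4.62-fold (3.68 to 5.83), H2-Aa 8.63-fold and H2-Eb1 11.1-fold higher than in intact cord, Vpreb3 was 13.9-fold, Ebf1 2.30-fold and Ighm 2.75-fold lower, and Apoe was still 31.8-fold higher.

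Day 7 against intact cord put 22 of 155 genes higher (14.2%) and 13 lower (8.39%), and 14 and 19 after TMM scaling. Igll1 was 8.42-fold (4.06 to 19.6) and Vpreb3 1.53-fold (1.07 to 2.20) higher. Igkc was 6.85-fold (3.89 to 13.2) and Ighm 2.55-fold (1.56 to 4.39) lower, and Cd74 was at 0.463 (0.305 to 0.685) of its intact level. Single cells weigh on these folds. In intact cord 1 cell held 44.7% of the Igkc UMIs, another 8 of the 9 Igll1 UMIs and another 50 of the 120 Cd74 UMIs. At day 7 a single cell held 31.1% of the Igll1 UMIs. Apoe, a lipoprotein of macrophages and glia, was 20.5-fold higher (8.97 to 57.6) and had UMIs in all 7 cells, at 3, 9, 19, 6, 23, 9 and 4. S100a8 was 58.2-fold lower, with 93.9% of its intact UMIs in a single cell. Macrophage markers summed to 5 to 33 UMIs a cell at day 7 (median 13), with Cx3cr1, Csf1r and Adgre1 at 0. Apoe is itself a member of that list and gave 73 of its 102 UMIs at day 7, and Spp1 gave 14 and Tyrobp 8.

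Day 1 against day 3 put 166 of 862 genes higher (19.3%) and 66 lower (7.66%), and 275 and 30 after TMM scaling. In the list on the surrogate light chain and recombination, Vpreb3, Vpreb1 and Igll1 alone had enough UMIs, and 3 of 3 were higher. Early regulators were higher in 5 of 5. Vpreb3 was 23.2-fold (6.39 to 192), Sox4 14.5-fold, Pou2af1 3.60-fold and Ebf1 2.62-fold higher. Vpreb1 was at least 3.32-fold, Igll1 at least 3.07-fold and Tcf3 at least 2.08-fold higher. Cell cycle genes were higher in 5 of 5, with Stmn1 at 16.1-fold. Without the cells of another type, surrogate genes were higher in 3 of 3, cell cycle genes in 5 of 5 and early regulators in 2 of 4. Their median log2 ratios were 3.21, 2.72 and 1.53, against 0.02 over all genes with enough UMIs. Class II genes were at least 2-fold lower in 3 of 6, with H2-Ab1 at 0.356, H2-Eb1 at 0.371 and H2-Aa at 0.459 of their day 3 levels. After TMM scaling the count was 1 of 6. Without the cells of another type it was 6 of 6, with a median log2 ratio of -1.46. Macrophage markers were lower at day 1 than at day 3 in 4 of 4 (without the cells of another type 1 of 4 lower and 1 higher), with neutrophil markers higher in 5 of 5 and endothelial markers in 2 of 2, and their part was not tested.

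Day 1 against day 7 put 203 of 831 genes higher (24.4%) and 90 lower (10.8%), and 360 and 8 after TMM scaling. There the surrogate genes were lower in 3 of 3, Igll1 8.53-fold (5.81 to 12.4) and Vpreb1 6.84-fold (4.58 to 10.04), while class II genes were higher in 5 of 6, with Cd74 3.89-fold (2.76 to 5.66), and Ms4a1 was 6.43-fold higher. Of the day 7 UMIs, the highest cell held 31.1% for Igll1 and 30.8% for Vpreb1. After TMM scaling 2 of the 3 surrogate genes were still at least 2-fold lower, and cell cycle genes went from 5 of 6 lower to 1 of 6. Monocyte and neutrophil markers were each higher at day 1 than at day 7 in 5 of 5, and their part was not tested. Without the cells of another type, surrogate genes were lower in 2 of 3, class II genes higher in 5 of 5 and cell cycle genes lower in 4 of 5. Their median log2 ratios were -2.25, 2.33 and -1.20, against -0.15 over all genes with enough UMIs.

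Seen against the rest of the day 1 library, the leading genes were those of the lineage, as a description since the cells were chosen on their counts. Igkc stood 2111-fold, Ms4a1 398-fold, Mzb1 616-fold, Ighm 236-fold, Vpreb3 208-fold, Ly6d 198-fold, Ptprcap, a partner of the phosphatase CD45, 112-fold, and Ebf1 49.2-fold above all other day 1 cells. Igll1 and Vpreb1, seen in 9 and 8 of the 87 cells, stood 2448-fold and 661-fold above them. The highest cell held 81.6% of the Igkc, 71.6% of the Ighm and 29.8% of the Vpreb1 UMIs of the B lineage cells. The gap was smaller for Ebf1 and Dnajc7, 11.6-fold, than for the antibody genes.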

How the data were processed

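Single cells of spinal cord were profiled in 4 time-course libraries (intact, and 1, 3 and 7 days after crush). The deposited tables hold UMI counts, 1 row a gene and 1 column a cell, which the authors made with Cell Ranger 3.0.2 per the submitters' processing notes. The genome build and the calling of cells from droplets are not given in the sources used here. Per the labels' protocols, cells were freed with collagenase and trypsin, and erythrocytes were lysed. No doublet caller was run. The intact and day 1 tables write 2104 of 28615 shared gene names with dots or a leading letter; they were matched to the names of the other tables, and 77 further names (0.0241 and 0.00960% of UMIs) were left out. Libraries held 9663877, 50640634, 72515788 and 30470794 UMIs. The injected libraries were not used here.

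Every cell passed the filters (200 genes, 500 UMIs, 20% mitochondrial UMIs at most). UMIs of the gated cells were summed per library or class and scaled to CPM. Exact Poisson (levels), exact binomial (ratios) and Clopper-Pearson (shares) intervals are at 95%. A gene counts as higher or lower past 2-fold, among genes with at least 50 UMIs over both sums, and a fold against 0 counts takes 3 counts over the group as a floor. The members, gene lists, markers and tests were chosen with earlier results of these data known, and the bounds on Vpreb1 plus Igll1 and on cell cycle genes after their values were seen. Named genes are list members that fit the lineage, then the top 10 genes each way, ranked by the log2 ratio after adding 50 CPM, whose interval leaves out 1, and the 15 genes highest against other day 1 cells. Mitochondrial, ribosomal and haemoglobin genes and the genes of the rule were not ranked. Some of these genes are not printed.

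The intervals were checked on gene sums simulated at the real library sizes with counting error only, the error that the intervals assume. Coverage near their set level was thus built in, and spread between cells or animals was not tested. The share of unchanged genes past 2-fold likewise holds for counting error alone. For day 1 against intact, intervals held the true ratio of 96.7% of 687 unchanged genes and 96% of 200 genes changed 4-fold, and 8.59% of the unchanged genes passed 2-fold. For day 3 the unchanged genes held in 95.97% of 124 and for day 7 in 96.2% of 104. Alternative settings were scaling by TMM or by median-of-ratios, totals free of mitochondrial and ribosomal genes, lower minimum counts, means over cells, other bounds of the gate and classes, and thinning to 1000 UMIs a cell. Sums without cells holding UMIs of other cell types, and without plasma-marker cells, were chosen after seeing the data. Software was edgeR 4.0.16 (TMM) in R 4.3.3, and numpy 2.4.6, scipy 1.17.1, pandas 2.3.3 and matplotlib 3.10.9 in Python 3.11.15.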

Additional observations from a re-analysis of the deposited data

How the results depend on the processing

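With 8 and 7 cells at days 3 and 7, counting error allows wide ranges, and no difference between libraries has a replicate check. No paired analysis was possible because each group has 1 library. For the 24 shares and counts of genes, 100 alternative values lay within the bound for no change and 62 moved. For the 73 ratios of single genes, 319 lay within it, 105 moved and 15 changed direction. Where a value moved, the cause was not tested.

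The share of B lineage cells was 0.109% in intact cord and 0% at day 7 with a C1q bound of 5 per 10000. It was 0.910% at day 1 and 0.0108% at day 3 with 6 Cd79 UMIs, and 0.611, 0 and 0% at days 1, 3 and 7 without cells holding 10 per 10000 UMIs of another type. The mature-marker share of day 1 was 11.5% with 2 Ms4a1 UMIs and 14.9% after thinning, and that of day 7 was 0% with 2 Ms4a1 UMIs. The precursor-marker share of day 3 was 0% with 4 surrogate UMIs and 0% after thinning.

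Genes at least 2-fold higher and lower were as follows. For day 1 against intact they were 379 and 23 by TMM, 357 and 25 by median-of-ratios, 518 and 340 from 20 UMIs, 5637 and 2454 from 1 UMI, 65 and 59 without other-type cells, and 109 higher with 6 Cd79 UMIs. For day 3 against intact they were 96 and 85 from 20 UMIs, 1989 and 3363 from 1 UMI, and 22 and 20 with 6 Cd79 UMIs. For day 7 against intact they were 14 higher by TMM, 7 and 21 by median-of-ratios, 52 and 48 from 20 UMIs, 1498 and 3228 from 1 UMI, 43 higher without mitochondrial and ribosomal genes, and 12 higher with 6 Cd79 UMIs. For day 1 against day 3 they were 275 and 30 by TMM, 272 and 31 by median-of-ratios, 697 and 182 from 20 UMIs, 6465 and 1608 from 1 UMI, 268 higher with 6 Cd79 UMIs, and 33 lower without other-type cells. For day 1 against day 7 they were 360 and 8 by TMM, 377 and 7 by median-of-ratios, 657 and 279 from 20 UMIs, 7197 and 1753 from 1 UMI, 126 higher with 6 Cd79 UMIs, 136 lower without mitochondrial and ribosomal genes, and 74 and 56 without other-type cells. For precursor-marker against mature-marker cells they were 181 and 115 from 20 UMIs.

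The log2 ratios that changed direction were, for day 1 against intact, Ighm at -0.18 without plasma-marker cells, Vpreb3 at 0.16 by TMM and 0.13 by median-of-ratios, and S100a8 at -1.52 as a mean over cells and -3.61 with 6 Cd79 UMIs. For day 3 against intact Igkc was at 0.36 as a mean over cells, 0.94 with 6 Cd79 UMIs and 0.26 without other-type cells, and for day 7 Tubb5 was at -0.33 as a mean over cells. For day 1 against day 3, Ebf1 was at -0.62 and Btg1 at -0.22 with 6 Cd79 UMIs. For day 1 against day 7, Ebf1 was at 0.04 by TMM and 0.08 by median-of-ratios, and Stmn1 at 0.04 with 6 Cd79 UMIs. S100a8 in precursor-marker against mature-marker cells was at -0.15 without other-type cells.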

Other observations

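Vpreb3 was also seen in cells of day 1 that held no Cd79 UMI. In 44 such cells it had at least 2 UMIs (highest 4), from a median of 8289.5 UMIs a cell. These cells held genes of ciliated ependymal cells and astroglia: Foxj1, the regulator of motile cilia, in 23 of 44 against 6.70% of other cells outside the gate, Tmem212 in 25, Dynlrb2 in 23, Ccdc153 in 14 and Gfap in 36. Ptprc (CD45) was seen in 2, and Vpreb1 and Igll1 in none. At least 2 UMIs of Foxj1, Tmem212, Dynlrb2 and Ccdc153 together were held by 27 of the 44 cells and by none of the 87 B lineage cells. Turned round, of 521 day 1 cells outside the gate with at least 2 UMIs of those 4 genes, 119 (22.8%) had a Vpreb3 UMI, at 47.8 CPM, against 1472 CPM in the B lineage cells of that library. The cells were picked on Vpreb3, and the pattern is given as values only.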
